A study of Mus musculus with 8 samples.

Results

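Aggrecan, versican, hyaluronan and cartilage-type matrix were followed in the ascending aorta of mice through 9 genes, namely Acan, Vcan, Hapln1, Has1, Has2, Cd44, Comp, Chad and Sox9. They were taken by gene symbol from the annotation of an Illumina expression array, where they have 15 of 25697 probes and are 9 of 16110 named genes. Each array held RNA of the ascending aorta of 1 mouse. The 3 normal mice (2 females and 1 male) were 5.8 to 7 months old. The 3 mice with mucopolysaccharidosis VII (MPS VII) and a dilated aorta (2 females and 1 male) were 6 to 9.1 months old. The 2 mice with MPS VII whose aorta was not dilated (1 female and 1 male) were 5.8 and 6.7 months old. All mice are labelled as C57BL/6, and the labels name neither the MPS VII allele nor any treatment. In MPS VII the lysosome lacks beta-glucuronidase, the enzyme that removes glucuronic acid from the ends of chondroitin sulphate, dermatan sulphate, heparan sulphate and hyaluronan fragments.

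Aggrecan and versican are large chondroitin sulphate proteoglycans (hyalectans) that bind hyaluronan, a long sugar polymer without a protein core. Link proteins such as Hapln1 lock them onto it, synthases at the cell membrane extrude it, and Cd44 is its main cell surface receptor. In cartilage these aggregates hold water under load, together with Comp and chondroadherin (Chad), and the transcription factor Sox9 switches on the aggrecan gene. In the wall of large arteries, smooth muscle cells and fibroblasts make hyalectans and hyaluronan as a soft, water-rich filling between elastic sheets.

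The measured values are the deposited intensities, in linear units after background subtraction, so that an absent transcript scatters around 0. An intensity over 25.6 counted as above background. By that measure 5 of the 9 genes could be tested, with a probe past this bound in 2 or more of the 8 aortas: Acan, Comp, Cd44, Has1 and Sox9. Vcan and Hapln1 lay below it on all 8 arrays, and Has2 and Chad passed it on 1 array each. Of the 10 chondrocyte markers considered, 6 did not pass on at least 2 arrays (Col9a1, Matn1, Hapln1, Chad, Col11a1 and Cnmd), and the probe of Col2a1, the main cartilage collagen, lay between 19.2 and 49.6. Among the 9 genes, Acan and Comp were therefore the only cartilage matrix genes measured, and the set is described here gene by gene. Cartilage matrix genes outside the set, some of them brighter, are given further below.

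Across the 8 arrays the medians were 17.75 to 17.99 units and 45.0% to 45.2% of probes lay above background. Arrays of the same group correlated at 0.971 to 0.989 across genes over 7 pairs, and arrays of different groups at 0.926 to 0.985 over 21 pairs. Gusb, which encodes beta-glucuronidase, lay at 992 to 1172 in normal aorta and at 112 to 218 in the 5 MPS VII aortas, on the side that the labels give. The smooth muscle markers (9 of 9 measured) summed to 99413 to 126219 in normal, 48273 to 86629 in dilated and 68601 to 91268 in not dilated aorta, and 8 fell in dilated aorta. The macrophage markers (9 of 12 measured) summed to 1378 to 2952, 11989 to 19380 and 5128 to 8821, and 8 rose. The adipocyte markers (6 of 8) summed to 3520 to 8934, 14400 to 23032 and 17826 to 30226, and 4 rose. Of the 8 endothelial markers 4 rose in dilated aorta, and of the 8 adventitial fibroblast markers 1 rose and 4 fell. Beside all these counts for dilated aorta, 9.82% of all genes tested were called higher than in normal aorta and 10.4% lower. The T and NK cell (4 of 8 measured) and cardiomyocyte (4 of 6) markers gave no call, and the Schwann cell markers (4 in the list) did not pass the bound on at least 2 arrays. Of the 4 tenocyte markers 2 were measured and 1 of them, Fmod, rose, while Tnmd and Mkx did not pass the bound on at least 2 arrays. In RNA from a whole piece of aorta, fewer cells of a type and less RNA per cell cannot be told apart, and the part of these cell types in the results below was not tested.

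In dilated against normal aorta, Acan fell and Comp rose, and in aorta without dilatation Acan fell as well. Of the 5 genes tested, 1 rose and 1 fell in dilated aorta. Over all 10040 genes tested, 20.2% were called in that comparison at a Benjamini-Hochberg adjusted p under 0.05 in limma (9.82% higher and 10.4% lower), so the members' share is set against a high background. The median log2 difference of the 5 genes was 0.58, against -0.05 over all genes tested. That median is the value of Cd44, which was not called (limma adjusted p = 0.127). In not dilated against normal aorta 1 of the 5 fell, where 10.0% of all genes were called (4.84% higher and 5.17% lower). In dilated against not dilated aorta 0 of the 5 passed in limma, although 2 had an unadjusted p under 0.05. Among all 10040 genes 0% passed there, and 910 had an unadjusted p under 0.05. All 4 comparisons come from 1 fit and share arrays, so their values are not independent of each other.

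**Figure D1:**
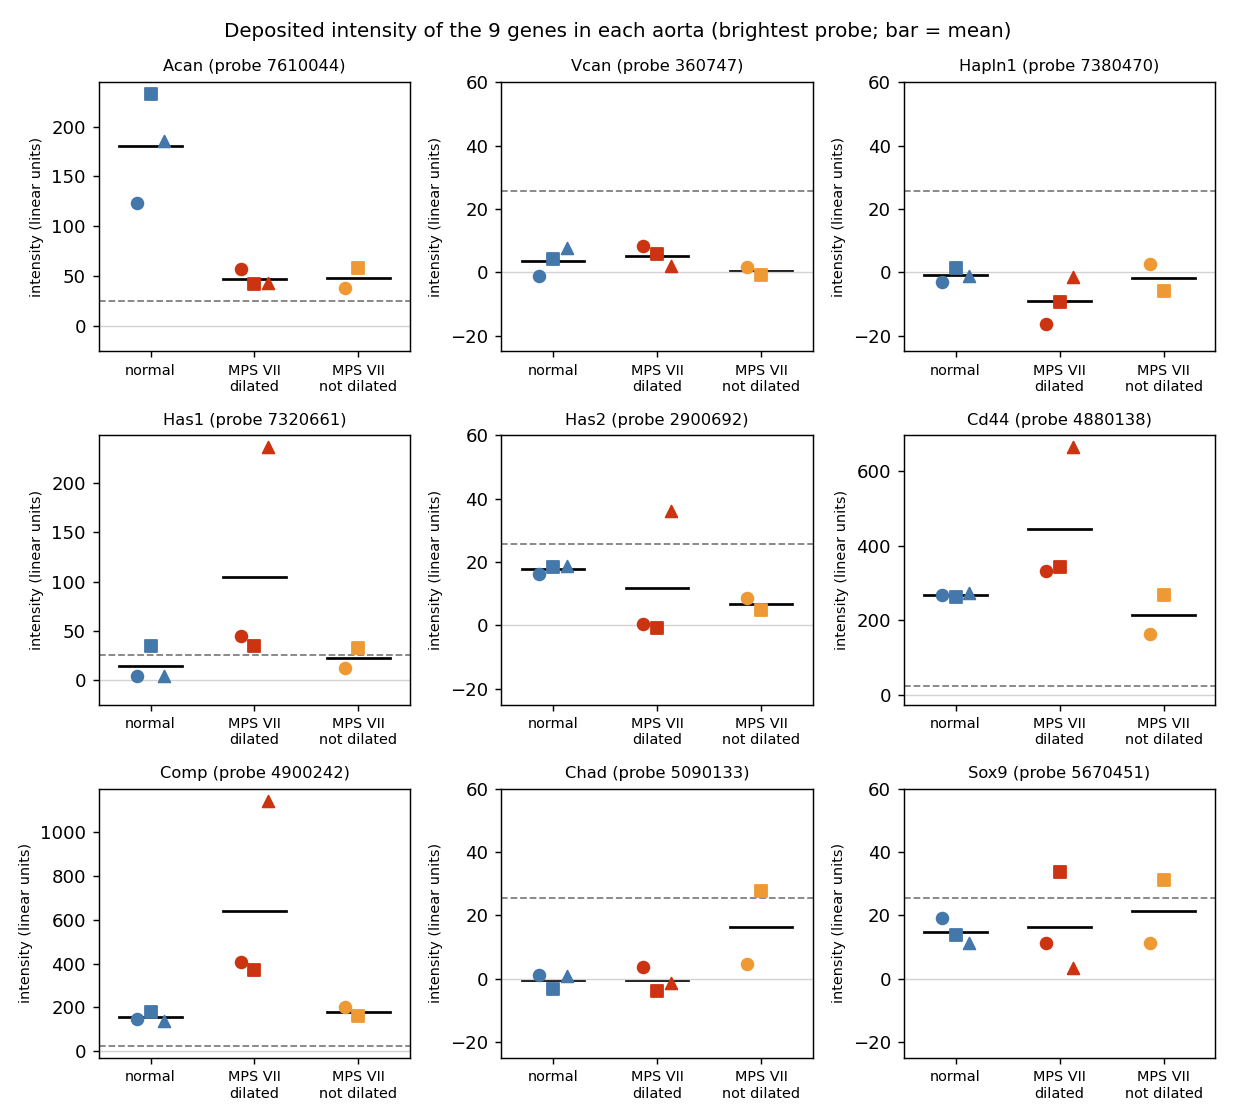
Deposited intensity in linear units (vertical axis, separate scale per panel) of the brightest probe of each of the 9 genes in the 3 groups, where each symbol is 1 mouse (circle, square and triangle for replicates 1, 2 and 3), the black bar is the group mean and the dashed line is the background bound of 25.6. Acan is high in the 3 normal aortas alone, Comp is higher in the 3 dilated aortas than in the other 5, and Vcan and Hapln1 stay under the dashed line in all mice.

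Acan encodes aggrecan, a core protein that carries many chondroitin sulphate chains. Its brighter probe (7610044) gave 124, 233 and 185 in the normal aortas, 57.0, 42.3 and 43.3 in the dilated ones and 38.4 and 58.2 in those without dilatation. The lowest normal aorta was thus above the highest of the 5 MPS VII aortas, and both MPS VII groups lay at the same low level, still above background on every array. The group means were 181 ± 54.4 (SD, n = 3), 47.5 ± 8.23 (n = 3) and 48.3 ± 14.0 (n = 2).

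Acan fell by 1.22 on the log2(intensity + 50) scale with dilatation (limma adjusted p = 0.00349, SE 0.18). In the group without dilatation it fell by 1.21 (limma adjusted p = 0.0142, SE 0.21). The added 50 units keep values below 0 on the log scale and understate the change of a gene as dim as this. Between dilated and not dilated aorta the log2 difference was -0.01 with a 95% interval of -0.47 to 0.46 (limma adjusted p = 0.995), which bounds what 3 against 2 mice could show. With both MPS VII groups averaged, Acan fell by 1.21 (SE 0.17, limma adjusted p = 0.00247), and it was lower in 15 of 15 pairs of an MPS VII and a normal mouse. In that comparison 24.4% of all genes were called (11.1% higher and 13.3% lower), and the groups did not overlap for 32.1% of all genes. The call without dilatation ended when normal replicate 3 was left out (limma adjusted p = 0.0559) or not dilated replicate 1 was (limma adjusted p = 0.0963).

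The second Acan probe (5870438) also separated the groups. It read 109, 174 and 181 in normal, 38.9, 34.1 and 27.9 in dilated and 33.5 and 56.2 in not dilated aorta. Again no MPS VII aorta reached a normal one. In a fit over all 12913 probes above background it fell by 1.27 with dilatation (limma adjusted p = 0.00194, SE 0.17). The fall in the other MPS VII group was 1.10 (limma adjusted p = 0.0142, SE 0.19).

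The stretches just upstream of the annotated start sites of Acan and Has1 are shown. Acan is the member that fell in both MPS VII groups. Has1 is the only hyaluronan synthase among the members above background in several aortas. Whether the letters of these stretches bear on any value here was not tested. Both are the 250 bases before the start in RefSeq's annotation (GRCm38.p6), 5′ to 3′ on the gene's strand. Acan lies on the plus strand at chr7:79052976-79053225, and Has1 on the minus strand at chr17:17855189-17855438. Capitals mark the GC box (GGGCGG or CCGCCC on either strand) in Acan and the cyclic AMP response element (TGACGTCA, the same on both strands) in Has1.
Acan: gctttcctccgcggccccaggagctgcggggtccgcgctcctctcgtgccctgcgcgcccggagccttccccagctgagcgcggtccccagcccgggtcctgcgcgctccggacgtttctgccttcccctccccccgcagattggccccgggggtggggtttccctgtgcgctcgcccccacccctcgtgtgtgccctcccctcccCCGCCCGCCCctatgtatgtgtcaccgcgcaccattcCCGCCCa
Has1: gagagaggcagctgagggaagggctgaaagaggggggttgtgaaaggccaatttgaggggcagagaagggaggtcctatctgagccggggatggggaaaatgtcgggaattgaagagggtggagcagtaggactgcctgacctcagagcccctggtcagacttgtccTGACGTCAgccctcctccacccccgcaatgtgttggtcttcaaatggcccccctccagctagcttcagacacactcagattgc

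The Acan stretch holds the GC box at 3 positions, 2 of which overlap, and 74.4% of its bases are G or C. A GC box is present in 32.7% of the 32851 annotated promoter stretches of that length, so it is common. The Has1 stretch holds 1 cyclic AMP response element, which 1.55% of all stretches have. Neither stretch contains the SOX-type letters ACAATG or ACAAAG on either strand, which 10.7% and 16.5% of all stretches hold, nor the TATA box TATAAA (12.4%). Of the 9 genes 6 have a promoter in the table, and Comp, Has2 and Sox9 are named only.

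Versican is the hyalectan usually ascribed to the artery wall, and Hapln1 is the link protein that binds it and aggrecan to hyaluronan. The 1 Vcan probe read -1.13 to 8.19 over the 8 arrays and the 1 Hapln1 probe -16.3 to 2.53. All values lay within the noise around 0, so these probes gave no level in any group, and no fold change is given. That says nothing about transcripts these probes do not reach. In the mouse gene table, Vcan lies beside Hapln1 and Acan beside another link protein gene, Hapln3. Of the 8 hyalectan and link protein genes on the array (Acan, Vcan, Bcan, Ncan and Hapln1 to Hapln4), only Acan passed the bound in 2 or more aortas.

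Comp, or cartilage oligomeric matrix protein, is a pentameric thrombospondin that bridges collagen fibrils and other matrix proteins. Its probe (4900242) read 147, 177 and 138 in normal aorta, 407, 370 and 1143 in dilated aorta and 200 and 160 in MPS VII aorta without dilatation. Each dilated aorta lay above each of the other 5, and of the 2 aortas without dilatation 1 lay within the normal range and 1 just above it. Dilated replicate 3 stood well above the other dilated aortas.

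The means of Comp were 154 ± 20.1 (SD, n = 3), 640 ± 436 (n = 3) and 180 ± 28.3 (n = 2). Its rise with dilatation was 1.59 on the log2 scale (limma adjusted p = 0.0142, SE 0.34). Without dilatation the log2 difference from normal was 0.17 (95% interval -0.70 to 1.04, limma adjusted p = 0.789). The direct test of dilated against not dilated gave 1.42 on the log2 scale (95% interval 0.55 to 2.29), which missed the threshold over all genes (unadjusted p = 0.00503, limma adjusted p = 0.320). So the data do not show that the 2 MPS VII groups differ in Comp beyond the threshold used. Without dilated replicate 3 the rise over normal was 1.11 (limma adjusted p = 0.00283), and the call ended without normal replicate 3 (log2 difference 1.53, limma adjusted p = 0.0550).

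Has1 encodes a hyaluronan synthase of the cell membrane, and its level turned on 1 mouse. The probe (7320661) read 3.97, 34.8 and 4.08 in normal, 44.4, 34.3 and 237 in dilated and 12.2 and 32.1 in not dilated aorta. It was above background in 1 of 3 normal, 3 of 3 dilated and 1 of 2 not dilated aortas, and only dilated replicate 3 stood clear of the others. The log2 difference between dilated and normal was 1.07 (95% interval 0.12 to 2.02) and did not pass (limma adjusted p = 0.103). It was 0.51 without dilated replicate 3. With sex or age as a covariate it passed (log2 differences 1.07 and 1.62, limma adjusted p = 0.0203 and 0.0171). Without dilatation the log2 difference from normal was 0.19 (limma adjusted p = 0.814).

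Has2, the synthase that makes most hyaluronan in the developing heart of mice, was near background. Its values were 16.2, 18.5 and 18.6 in normal, 0.408, -0.82 and 36.2 in dilated and 8.73 and 4.93 in not dilated aorta. Dilated replicate 3 was again the highest and the only array above the bound, so the gene was not tested and no fold change is given.

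Cd44, the hyaluronan receptor found on leukocytes, fibroblasts and activated smooth muscle cells, has 6 probes that disagree. Its brightest probe (4880138) read 267, 264 and 274 in normal aorta, a spread of only a few units. It read 332, 342 and 662 in dilated aorta and 164 and 267 in aorta without dilatation. The dilated values lay above all others, while the 2 values without dilatation reached down from the normal range.

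The log2 difference of that probe was 0.58 in dilated minus normal (95% interval 0.02 to 1.13, limma adjusted p = 0.127) and -0.29 in not dilated minus normal (limma adjusted p = 0.502), and neither passed. Dilated minus not dilated gave 0.86 (95% interval 0.24 to 1.49, unadjusted p = 0.0118, limma adjusted p = 0.414). Without dilated replicate 3 the difference from normal was 0.28 (limma adjusted p = 0.305). A second probe (6590228) lay just above background in all 8 aortas, between 32.0 and 49.8, with a log2 difference of -0.06 in dilated minus normal (limma adjusted p = 0.772 over all probes). The other 4 Cd44 probes stayed between -7.86 and 18.5, below background on every array.

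Sox9, the transcription factor that drives cartilage genes, and Chad, a leucine-rich protein that binds collagen and cells in cartilage, were close to background. Sox9 (probe 5670451) read 19.2, 13.9 and 11.1 in normal, 11.3, 33.7 and 3.46 in dilated and 11.2 and 31.3 in not dilated aorta. It passed the bound in dilated replicate 2 and not dilated replicate 2 only. Its log2 difference was 0.01 in dilated minus normal (95% interval -0.41 to 0.42, limma adjusted p = 0.982) and 0.13 in not dilated minus normal (limma adjusted p = 0.710). Chad read -3.89 to 4.60 on 7 arrays and 27.7 in not dilated replicate 2, and was not tested.

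**Figure D2:**
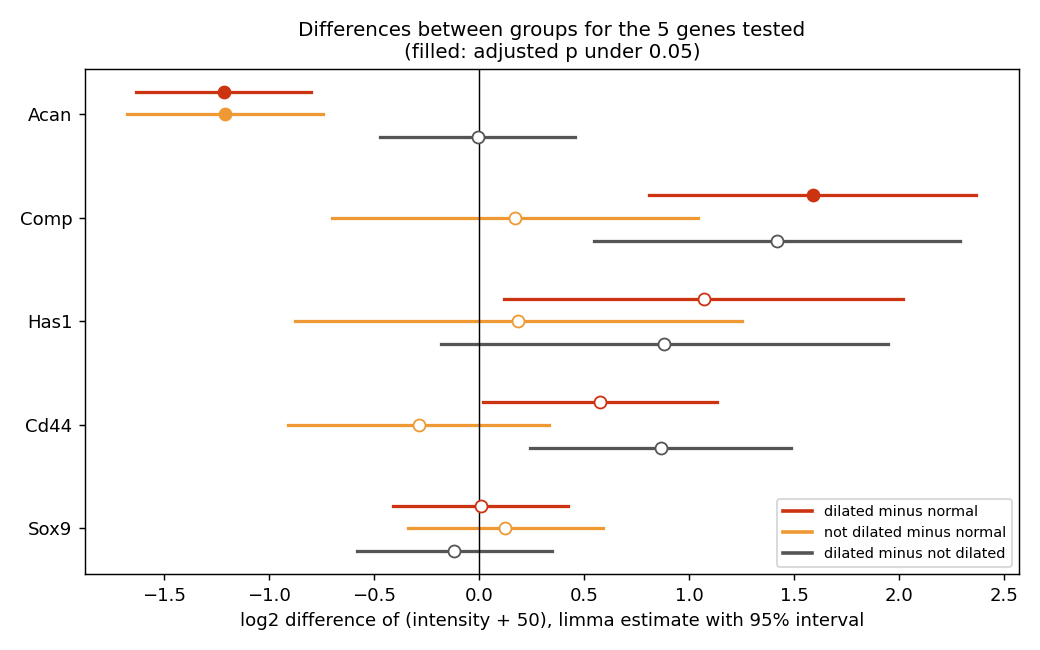
Log2 difference of (intensity + 50) between groups (horizontal axis) for the 5 genes tested, as limma's estimate with its 95% interval for dilated minus normal (red), not dilated minus normal (orange) and dilated minus not dilated (grey). Filled points passed an adjusted p under 0.05, which are both Acan differences from normal, at -1.22 and -1.21, and Comp in dilated minus normal, at 1.59.

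The groups did not overlap for Acan, Comp and Cd44 in dilated against normal aorta, 3 of 5 genes where 42.5% of all genes were as separate. In not dilated against normal aorta Acan alone was separate, 1 of 5 against 50.7% of all genes. In dilated against not dilated aorta Comp, Cd44 and Has1 were separate, 3 of 5 against 25.0% of all genes. In the last of these the 3 genes were all higher in the dilated aortas, and in each of them dilated replicate 3 was the highest array. That mouse was a male of 6 months, the youngest of the dilated group, and its macrophage marker sum of 19380 was above those of the other dilated aortas, 12305 and 11989. Its smooth muscle marker sum of 48273 was the lowest of the 8.

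The 3 profiles nearest to Acan over the 8 arrays were those of Cnn1, Pdlim4 and Syngr3, and those nearest to Comp were Mrc1, Hk3 and Fcna. Of the 3 nearest to Acan only Cnn1 is in the smooth muscle marker list, and the distances of all 3 were close. Nearness was measured as the root mean square difference between log2 values after each gene was centred on its own mean, over 8954 other named genes. Nearest to Acan was Cnn1, or calponin, an actin-binding protein of contractile smooth muscle, at a distance of 0.13, with means of 144, 36.7 and 32.4 in normal, dilated and not dilated aorta. Pdlim4, a PDZ and LIM domain protein, followed at 0.13 (1442, 555 and 548) and Syngr3, a synaptic vesicle protein, at 0.14 (107, 16.4 and 12.0, above background in 1 of the 5 MPS VII aortas). For scale, the SD of Acan itself over the 8 arrays was 0.66.

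Nearest to Comp was Mrc1, the mannose receptor of macrophages, at a distance of 0.24, with means of 461, 1851 and 720. Hk3, a hexokinase of myeloid cells, followed at 0.27 (16.2, 143 and 38.8), and Fcna, or ficolin A, a macrophage lectin of the complement system, at 0.28 (309, 930 and 398). The SD of Comp was 0.91. The values of Mrc1 were 1419, 1132 and 3001 in the dilated aortas, so it shares the high dilated replicate 3 with Comp.

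**Figure D3:**
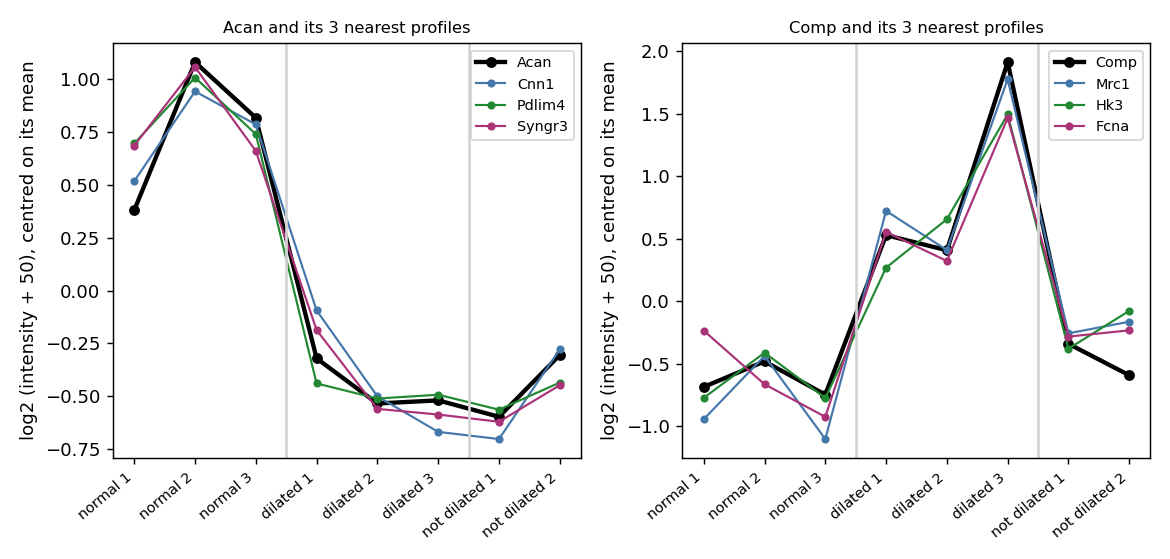
Log2 of (intensity + 50), centred on each gene's mean over the 8 arrays (vertical axis), for each mouse (horizontal axis) in Acan and Comp (black) and their 3 nearest genes (coloured lines). Acan, Cnn1, Pdlim4 and Syngr3 are high in the 3 normal aortas and low in the 5 MPS VII aortas, while Comp, Mrc1, Hk3 and Fcna peak in dilated replicate 3.

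Among 28 genes of hyaluronan synthesis, binding and breakdown, 16 were measured and 2 rose and 2 fell in dilated aorta, a share near the 20.2% of all genes called, with a median log2 difference of 0.00 against -0.05 for all genes. Hyal1, the lysosomal hyaluronidase, read 2718, 2727 and 2563 in normal, 973, 724 and 509 in dilated and 956 and 1045 in not dilated aorta. It fell by 1.83 with dilatation (limma adjusted p = 0.000837, SE 0.20). The fall without it was 1.37 (limma adjusted p = 0.0128, SE 0.22), a call that ended when not dilated replicate 1 was left out (limma adjusted p = 0.0796). Has3, the third hyaluronan synthase, was above background in the 3 normal aortas (58.0, 82.6 and 36.5) and in none of the 5 MPS VII aortas (2.56 to 7.75). It was at least 1.42-fold lower in each MPS VII group (limma adjusted p = 0.00441 and 0.0199). The call without dilatation ended without normal replicate 1 (limma adjusted p = 0.0582), not dilated replicate 1 (0.0978) or not dilated replicate 2 (0.0641). For Acan, Hyal1 and Has3 alike, no MPS VII aorta reached the lowest normal one. The MPS VII and normal aortas did not overlap for 32.1% of all genes, so that separation is common here.

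Stab1, or stabilin-1, a scavenger receptor of macrophages and sinusoidal endothelium related to the hyaluronan receptor stabilin-2, rose by 1.67 in dilated aorta, from a mean of 169 to 659 (SE 0.21, limma adjusted p = 0.00138). It lay at 336 without dilatation, where its log2 difference of 0.81 missed the threshold (limma adjusted p = 0.0581). Lyve1, the hyaluronan receptor of lymphatic vessels and some vessel wall macrophages, rose from 187 to 361 (limma adjusted p = 0.0424, log2 difference 0.75 with SE 0.22), and that call ended under 11 of 22 other settings. It lay at 148 without dilatation. In not dilated against normal aorta, where 4.84% of all genes were higher and 5.17% lower, 1 of the 16 genes rose and 3 fell. Besides Hyal1 and Has3 these were C1qbp, a mitochondrial protein that binds hyaluronan and rose (log2 difference 0.95, limma adjusted p = 0.0433), and Itih4, of the inter-alpha-trypsin inhibitor family, which fell (log2 difference -2.15, limma adjusted p = 0.0388), both named after their values were seen.

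Of 27 genes of chondroitin sulphate chain synthesis, enzymes and transporters such as Slc35d1, 22 are on the array and 14 were measured. In dilated aorta 2 of the 14 rose and 2 fell, a share near the 20.2% of all genes called. The median log2 difference of the 14 was -0.09, against -0.05 over all genes. Chst3, a sulphotransferase that adds the 6-O-sulphate, read 388, 467 and 381 in normal, 143, 257 and 73.2 in dilated and 186 and 164 in not dilated aorta. It fell by 1.25 with dilatation (limma adjusted p = 0.0162, SE 0.28). Its second probe fell by 1.10 (limma adjusted p = 0.0101 over all probes). Csgalnact1, which starts the chain, went from a mean of 152 to 68.8 in dilated aorta and 62.1 without dilatation (log2 differences -0.74 and -0.83, limma adjusted p = 0.0190 and 0.0337).

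The enzymes that rose were Chst15, which adds a further sulphate to the chain, and Xylt2, a xylosyltransferase that makes the first link of the sugar to the core protein. Chst15 went from 101 to 227 (limma adjusted p = 0.0334, log2 difference 0.81 with SE 0.22) and Xylt2 from 77.8 to 133 (limma adjusted p = 0.0174, log2 difference 0.52 with SE 0.12). Chst15 lay at 201 in not dilated aorta and Xylt2 at 81.1, and neither difference from normal passed there. The call of Chst15 ended without any 1 of the normal replicates or dilated replicate 2, and that of Xylt2 without normal replicate 1. The call of Chst3 ended without normal replicate 2. The call of Csgalnact1 in dilated aorta ended without normal replicate 2 or 3 or dilated replicate 2. Its call in not dilated aorta ended under 6 of 22 other settings, with a limma adjusted p of 0.197 without not dilated replicate 1. The other endings there were without not dilated replicate 2, normal replicate 2 or 3 or dilated replicate 2, and with array quality weights.

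A list of proteases that can cleave hyalectans, which also held the protease inhibitor Timp3, had 11 of its 15 genes measured. In dilated aorta 4 of the 11 rose and 2 fell, where 9.82% of all genes were higher and 10.4% lower. The median log2 difference of the 11 was 0.22, which is the value of Timp3, against -0.05 over all genes. Mmp3, or stromelysin-1, which cuts aggrecan among many substrates, read 617, 1348 and 864 in normal and 3271, 4136 and 3533 in dilated aorta, with 1204 and 2224 without dilatation. It rose by 1.96 (SE 0.29, limma adjusted p = 0.00323), and its 2 further probes rose by 1.84 and 2.13. Mmp2, a gelatinase, rose by 1.04 from 3614 to 7585 (SE 0.17, limma adjusted p = 0.00448) and lay at 4808 without dilatation.

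Mmp13, a collagenase, went from 25.5, close to background and above it in 1 of 3 normal aortas, to 94.4 (limma adjusted p = 0.0398). A second Mmp13 probe did not move with it (log2 difference -0.20, limma adjusted p = 0.362 over all probes), and the call ended under 7 of 21 other settings, so it is uncertain. Adamts15, an aggrecan- and versican-cleaving protease, went from 223 to 104 (limma adjusted p = 0.0485, log2 difference -0.92 with SE 0.28), close to the threshold, and its call ended under 15 of 22 other settings. Named after their values were seen, the other 2 calls were Mmp14, a membrane-bound metalloprotease that rose by 0.80 (limma adjusted p = 0.0233), and Adamts1, a versican-cleaving protease that fell by 0.75 (limma adjusted p = 0.0233). In not dilated against normal aorta 0 of the 11 passed in limma, where 10.0% of all genes were called. At an unadjusted p under 0.05 there were 1 higher, Mmp3 (log2 difference 0.83), and 1 lower, Adamts1 (log2 difference -0.57), which were named after their values were seen.

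Within the thrombospondin family to which Comp belongs, 4 of 5 genes were measured and all 4, Comp among them, changed in dilated aorta, where 20.2% of all genes were called. Besides Comp, Thbs2, a matricellular thrombospondin, rose from 1170 ± 62.9 to 2237 ± 528 (SD, n = 3 each), with a log2 difference of 0.88 (limma adjusted p = 0.00900, SE 0.17). Thbs1, an activator of latent TGF-beta, was below background in the 3 normal aortas and at 34.5, 68.1 and 83.7 with dilatation, which is at least 1.46-fold higher (limma adjusted p = 0.00441). Thbs3, a pentameric member like Comp, moved the other way, from a mean of 274 to 116 in dilated and 114 in not dilated aorta (log2 differences -0.97 and -0.99, limma adjusted p = 0.00321 and 0.0129). Of its further probes 1 fell by 0.74 and the other, at a log2 difference of -0.33, missed the threshold. Thbs3 was the 1 family member that passed in aorta without dilatation, where 10.0% of all genes were called. That call of Thbs3 ended without not dilated replicate 1 (limma adjusted p = 0.0866).

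**Figure D4:**
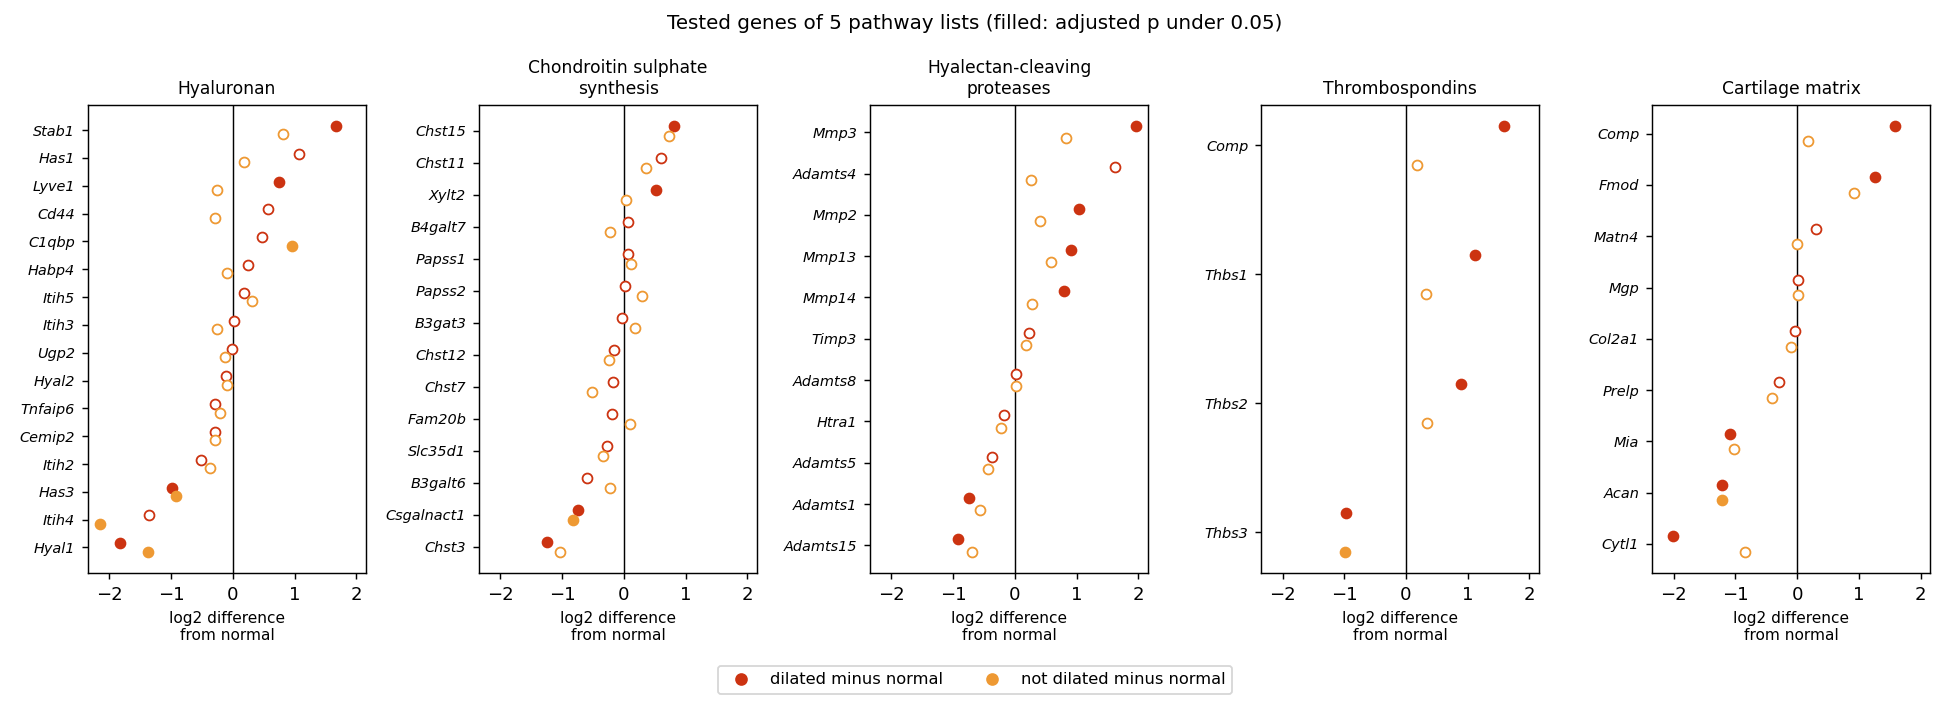
Log2 difference of (intensity + 50) from normal aorta (horizontal axis) for the measured genes of 5 lists, in dilated (red) and not dilated (orange) MPS VII aorta, with filled points for an adjusted p under 0.05. Hyal1, Has3, Acan, Csgalnact1 and Thbs3 are filled and lower in both groups, while Comp, Mmp3, Thbs1 and Stab1 are filled in dilated aorta alone.

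Of 27 cartilage matrix genes 25 are on the array and 9 were measured. In dilated aorta 2 of them rose and 3 fell, where 9.82% and 10.4% of all genes did. The median log2 difference of the 9 was -0.03, against -0.05 over all genes. In not dilated aorta Acan was the 1 of them that fell, where 5.17% of all genes did. Besides Comp and Acan, Cytl1, a secreted cytokine-like protein of cartilage, read 1475, 1280 and 1387 in normal, 252, 588 and 183 in dilated and 623 and 903 in not dilated aorta. It fell by 2.01 with dilatation (SE 0.32, limma adjusted p = 0.00448), and the log2 difference without dilatation was -0.84 (limma adjusted p = 0.155). Mia, a small secreted protein of cartilage and melanoma cells, fell by 1.08 (limma adjusted p = 0.0493, just under the threshold) and was named after its values were seen. Fmod, or fibromodulin, a collagen-binding leucine-rich proteoglycan, went from 143 ± 107 to 382 ± 112 (SD, n = 3 each), with a log2 difference of 1.26 (limma adjusted p = 0.0293, SE 0.34). The normal values of Fmod were 86.1, 266 and 76.3, so 1 normal aorta lay close to the lowest dilated one at 276, and the call ended without normal replicate 1 or 3 or dilated replicate 1 or 3.

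Of 21 chondrogenic and osteogenic regulators and products 18 are on the array and 6 were measured. Among these 6, 1 fell in dilated aorta, Ibsp or bone sialoprotein, a share near the 20.2% of all genes called. Ibsp was at 33.0 to 44.3 in normal aorta, just above background, and below it in all 5 MPS VII aortas. With dilatation it was at least 1.18-fold lower (limma adjusted p = 0.0110), while without dilatation the difference did not pass (limma adjusted p = 0.0672). Col2a1 had a log2 difference of -0.03 in dilated minus normal (limma adjusted p = 0.904). Beside these values, 8 of the 9 smooth muscle markers fell in dilated aorta, where 20.2% of all genes were called. Without dilatation 2 of the 9 fell, where 10.0% of all genes were called. The smooth muscle marker sums of the 2 MPS VII groups overlapped (48273 to 86629 and 68601 to 91268). Also without dilatation, 6 of 9 macrophage, 4 of 6 adipocyte and 3 of 8 endothelial markers rose, and 4 of 8 adventitial fibroblast markers fell. The macrophage marker sums were highest in the dilated aortas, where Comp was high, and a link between them was not tested. Mrc1, the gene nearest to Comp in profile, is itself part of that sum.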

How the data were processed

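One Illumina array per mouse was read for 8 ascending aortas. The deposited intensities were used as given. Per the submitters' processing notes, GenomeStudio and Partek were used. Neither their roles nor the normalization is given in the sources used here. About 28% of values lie below 0, and once ranked the 8 arrays never differ by more than 0.94 units at a rank, so a background had been subtracted and the arrays share 1 distribution. A change in total RNA cannot be seen in them. A further, non-normalized table was left out, because none of the 16 column names could be tied to 1 sample.

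Noise, estimated by mirroring the negative values, had an SD of 11.0, and its one-sided 0.01 bound is 25.6. Probes above it on at least 2 of 8 arrays were kept (12913), and the brightest probe stood for its gene, which left 10040 genes (8955 named, 1085 unnamed probes). Of the probes, 23141 carry 1 gene symbol in the platform annotation, 0 carry several and 2556 carry none. Each annotated probe was found in RefSeq's GRCm38.p6 gene list. Coordinates are given for the RefSeq promoter stretches only, since the files name no build.

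Log2 of intensity + 50 was fitted with a mean per group by lmFit and eBayes (limma 3.58.1, R 4.3.3), two-sided, with Benjamini-Hochberg adjustment over all genes. The fit had 5 residual and 4.05 prior degrees of freedom. With 3 against 3 mice an exact permutation test cannot go below p = 0.1, so p-values rest on limma's model. A lower bound of a fold sets the bright group against the higher of 25.6 and the measured value on the same scale. On simulated data for dilated minus normal over 10040 genes, 86% of changes of 1 and 94% of changes of 2 on the log2 scale were recovered. The members and lists were chosen with earlier results of these data known. All members are named, then up to 4 genes per list that passed in dilated minus normal, by size, and the 3 nearest profiles of each member called.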

Additional observations from a re-analysis of the deposited data

How the results depend on the processing

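Each of 68 results on single genes was recomputed under up to 22 other settings. Of the 1469 values, 1360 kept their direction and side of the threshold, 63 no longer passed, 27 newly passed and 19 changed sign, and the cause was not tested. In dilated minus normal aorta 1 to 2 members were called (2 in all) when single mice were left out, with 1 without normal replicate 3, and Acan kept its call in all 22 settings. In not dilated minus normal aorta the count was 0 to 1, and it was 0 in limma without normal replicate 3 and without not dilated replicate 1. For the mean of both MPS VII groups it was 1 to 2 when mice were left out, and 2 with array quality weights, age as a covariate or the replicate block, where Comp joined Acan.

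The sign changes lay in differences that passed in no fit. With 1 mouse left out, Sox9 ran from -0.18 to 0.15 in dilated minus normal, -0.080 to 0.33 in not dilated minus normal, -0.32 to 0.086 in dilated minus not dilated and -0.037 to 0.17 for the mean of both. For Sox9, an offset of 16 gave -0.038 and age as a covariate -0.21 in dilated minus normal, age -0.030 for the mean of both, and array quality weights 0.071 in dilated minus not dilated. Acan in dilated minus not dilated ran from -0.15 to 0.14 and was 0.030 with sex as a covariate. With mice left out, Has1 and Xylt2 in not dilated minus normal ran from -0.014 to 0.40 and from -0.043 to 0.097, and Cd44 for the mean of both from -0.0036 to 0.29.

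Whether replicate numbers mark pairs of mice could not be settled with so few arrays. Same-numbered deviations from the group means correlated at -0.193 to 0.333 (over 0.1 in 2 of 7 pairs). The 14 other pairs between groups gave -0.333 to 0.158, and 5 of 8 arrays correlated best with their own number. With the replicate block 2 members were called in dilated minus normal (Acan, limma adjusted p = 0.00722, and Comp, limma adjusted p = 0.0170). Over all genes, dilated minus normal gave 2032 calls, 3324 with array quality weights and 1089 at the lowest, without normal replicate 1. The count in not dilated minus normal was 1005 and ran from 81 to 1538 without single mice, that for the mean of both was 2446 and ran from 1176 to 3444, and that in dilated minus not dilated was 0 in limma, with 910 at an unadjusted p under 0.05, and reached 19 with sex as a covariate. A filter of above background on all 8 arrays left Has1 and Sox9 without a value. The small number of arrays limits the precision, and values near the bound of 25.6 have no reliable order.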
